A study of Mus musculus with 48 samples.

Results

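The acute phase genes Saa1, Saa2, Saa3, Lcn2, Hp, Orm1 and Cp were followed through RNA sequencing of mouse lung. They are 7 of the 47561 genes in the deposited table and were taken by gene symbol. They were chosen by their FPKM under the strain, injection and air labels of these same mice, so their levels, and any count of calls among them, by those labels are a description that supports nothing, and sex is the only label for which a test of them is reported as a result. All 7 symbols were found, as ENSMUSG00000074115 (Saa1), ENSMUSG00000057465 (Saa2), ENSMUSG00000040026 (Saa3), ENSMUSG00000026822 (Lcn2), ENSMUSG00000031722 (Hp), ENSMUSG00000039196 (Orm1) and ENSMUSG00000003617 (Cp). A filter of at least 1 FPKM in at least 3 of 48 mice was met by Saa3, Lcn2, Hp, Cp and Orm1 in room air as well as in hyperoxia, Orm1 with 5 of the 24 room air and 21 of the 24 hyperoxia mice. Saa1 and Saa2 met it through hyperoxia alone, with 2 and 0 of the room air mice and 21 and 15 of the hyperoxia mice.

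Acute phase proteins are secreted proteins whose synthesis changes during inflammation. Most are made by hepatocytes in response to interleukin 6 and related cytokines, interleukin 1 and tumor necrosis factor, which act through STAT3, C/EBP factors and NF-kB. Several are also made outside the liver, among them Saa3 in macrophages and epithelia, Lcn2 in neutrophils and epithelia, and haptoglobin in lung epithelium.

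Lungs came from adult C3H/HeN (C3H) and C57Bl/6 (C57B) mice, inbred strains, of both sexes. Each mouse received 1 intraperitoneal injection of saline or of 25 mg/kg of ATG (aurothioglucose, a gold drug and inhibitor of thioredoxin reductase) and then spent 96 h in room air or in hyperoxia (more than 95% oxygen), and 3 mice were sequenced in each of the 16 groups. The groups follow the sample labels. The series text differs from them by giving ATG to every mouse and a J substrain for C57B, and the methods name an N substrain. No liver or plasma was measured, and the lung is bulk tissue, so fewer cells of a type and less RNA per cell cannot be told apart. Values are FPKM, fragments counted per transcript length and sequencing depth, which are divided by length and can be compared between genes. The summed FPKM was 533671 to 748290 per mouse in room air and 510933 to 594520 in hyperoxia, and the club cell transcript Scgb1a1 made up 10.4% to 30.2% of it in room air and 1.20% to 7.17% in hyperoxia, so lung markers were abundant in every library. Read depth is unknown, apart from a rough estimate from the steps of low values that put the libraries between 0.772 and 1.24 of their median. Genes on the X and Y chromosomes are listed at 0 in every mouse, so the sex labels could not be checked.

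The 3 serum amyloid A genes lie in a cluster of 42.3 kb on chromosome 7 (GRCm38). Saa3 occupies chr7:46711998-46715700 on the minus strand, Saa1 chr7:46740497-46742980 on the minus strand and Saa2 chr7:46751790-46754313 on the plus strand, so that Saa1 and Saa2 start 8810 bases apart and point away from each other. The upstream stretches are shown because these neighbors had very different lung levels. They are the bases of the RefSeq promoter windows (GRCm38.p6) that lie outside annotated exons, 5′ to 3′ on the strand of the gene, and capitals mark matches to the C/EBP type motif TTGCNNAA on either strand.
Saa1, chr7:46742981-46743230, minus strand: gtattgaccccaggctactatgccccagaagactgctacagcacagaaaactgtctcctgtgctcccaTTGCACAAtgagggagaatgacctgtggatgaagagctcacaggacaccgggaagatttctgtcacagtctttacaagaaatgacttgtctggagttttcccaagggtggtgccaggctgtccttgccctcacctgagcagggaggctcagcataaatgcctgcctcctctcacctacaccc
Saa2, chr7:46751583-46751789, plus strand: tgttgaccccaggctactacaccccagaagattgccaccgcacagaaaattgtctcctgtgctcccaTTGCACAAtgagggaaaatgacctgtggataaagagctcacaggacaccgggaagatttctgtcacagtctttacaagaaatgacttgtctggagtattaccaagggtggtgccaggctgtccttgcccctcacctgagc
Saa3, chr7:46715701-46715926, minus strand: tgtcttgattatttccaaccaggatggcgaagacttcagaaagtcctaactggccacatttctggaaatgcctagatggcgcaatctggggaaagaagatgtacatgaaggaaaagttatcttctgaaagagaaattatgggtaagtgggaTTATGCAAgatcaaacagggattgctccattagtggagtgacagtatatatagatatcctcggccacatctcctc

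Identity was counted over the full windows of 250 bases, which for Saa2 and Saa3 run past the stretches shown. Upstream of Saa1 and Saa2, 238 of 249 bases aligned without a gap were identical (95.6%), against 154 of 205 (75.1%) for Saa1 and Saa3 and 147 of 207 (71.0%) for Saa2 and Saa3. The motif stood at bases -182 to -175 from the RefSeq start of Saa1, at -183 to -176 of Saa2 and at -99 to -92 of Saa3. It was also found in the window of Lcn2 (-216 to -209) and in 1 of the 2 windows of Cp (-70 to -63). Unlike the matches of the Saa genes, both lie past the first base of their window that falls in an annotated exon. The same holds for the TATAAA copies of Cp given below. Of all 32851 RefSeq windows of 250 bases, 9.56% held it. The NF-kB type motif of GGGA and TTCC with 2 bases between them (1.21% of windows) and the STAT type motif TTCNNNGAA (7.02% of windows) were not matched in these windows, and TATAAA (12.4% of windows) was matched only in a window of Cp, where a copy on each strand overlaps. Hp and Orm1 were not searched. The other genes lie apart, Lcn2 at chr2:32384633-32388252 (minus strand), Hp at chr8:109575128-109579172 (minus strand), Orm1 at chr4:63344560-63348163 (plus strand) and Cp at chr3:19957054-20009145 (plus strand). Saa1 and Saa2 are so alike that 27.9% of the 30-base sequences of Saa1 occur in Saa2, and 28.0% of those of Orm1 occur in Orm2, so the levels of Saa1, Saa2 and Orm1 depend on how their reads were divided and are uncertain. The share of such sequences found in any other gene was 7.72% for Saa3, 0.456% for Hp and 0 for Lcn2 and Cp.

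In room air the 7 genes ranged from not detected to among the highest lung transcripts. Hp, which encodes the hemoglobin-binding protein haptoglobin, was the highest, at 576.5 to 1508 FPKM over 24 mice with a median of 1014, and its median ranked 43 and 38 among 16994 genes in saline C3H and C57B mice. Lcn2, the iron-siderophore binding protein lipocalin 2, was at 30.2 to 256 FPKM, and Cp, the copper-carrying ferroxidase ceruloplasmin, at 44.9 to 96.8 FPKM. These 2 ranges overlap, and both lie below every value of Hp. Saa3 was at 4.35 to 23.5 FPKM, below every Cp value. Orm1, which encodes the plasma carrier orosomucoid, was at 0 to 1.63 FPKM, Saa1 at 0 to 1.75 FPKM and Saa2 at 0 to 0.514 FPKM, and these 3 ranges overlap. Saa1 was listed at 0 in 15, Saa2 in 21 and Orm1 in 4 of the 24 room air mice, and a value of 0 in such a table can be a failed estimate.

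**Figure D1:**
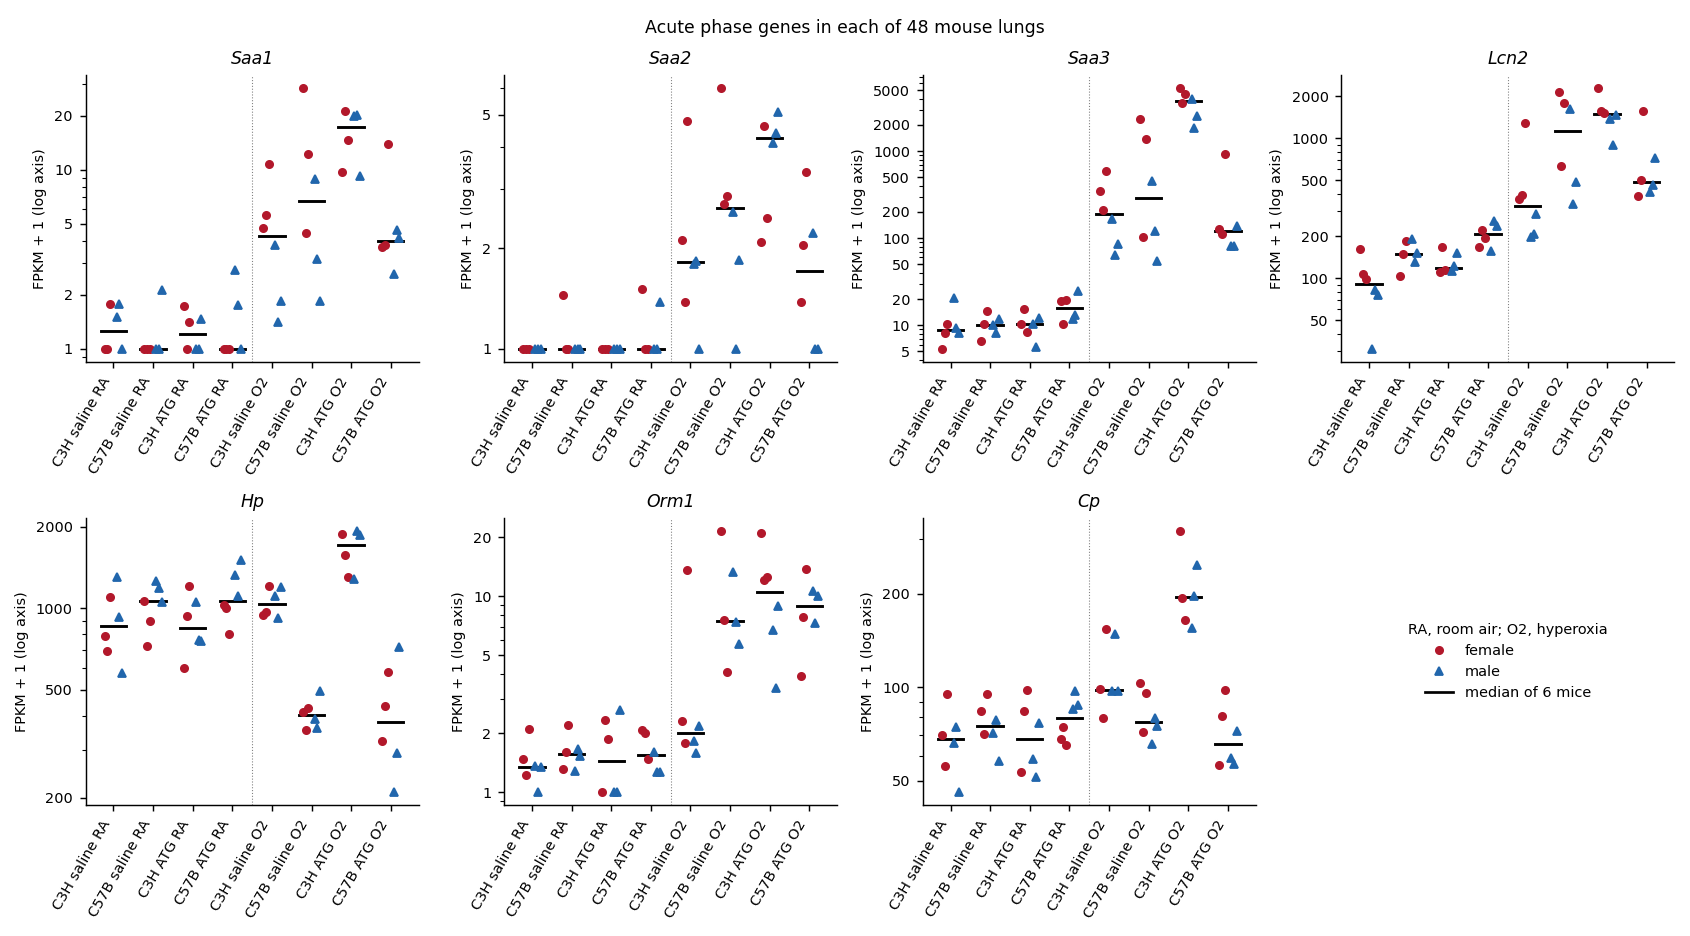
FPKM + 1 on a log axis for each of the 7 genes in every lung, with 6 mice in each of 8 conditions (RA, room air; O2, hyperoxia), females as circles, males as triangles and black bars at the median. Saa3 and Lcn2 lie higher in hyperoxia than in room air in every condition, the C3H mice given ATG reach the highest Saa3 (1828 to 5357 FPKM), and Hp lies lower in hyperoxia in C57B mice.

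Saa3, an acute phase apolipoprotein that in mice is made mainly outside the liver, had the largest differences of the 7 between hyperoxia and room air on the log2(FPKM + 1) scale. In C3H mice given saline it was at 4.35 to 19.6 FPKM (median 7.795) in room air and at 63.9 to 596 FPKM (median 188) in hyperoxia. In C57B mice given saline it was at 5.62 to 13.5 FPKM (median 9.11) in room air and at 53.8 to 2306 FPKM (median 287) in hyperoxia. Every hyperoxia mouse of both strains lay above every room air mouse of its strain, with ratios of medians of 24.1 and 31.5. Over all genes, 9.85% were higher without overlap in C3H and 15.5% in C57B saline mice.
In ATG mice the strains were far apart. In C3H mice given ATG, Saa3 was at 4.65 to 14.3 FPKM (median 9.22) in room air and at 1828 to 5357 FPKM (median 3738) in hyperoxia, a ratio of medians of 405, and it ranked 7 among 16994 genes by median. In C57B mice given ATG it was at 9.34 to 23.5 FPKM (median 14.9) in room air and at 80.3 to 921 FPKM (median 118.5) in hyperoxia, a ratio of medians of 7.94. Neither pair overlapped, as for 15.8% and 18.1% of all genes. The order of the hyperoxia medians was C3H ATG, C57B saline, C3H saline and C57B ATG. Every C3H ATG mouse lay above every C3H saline and C57B ATG mouse but not above every C57B saline mouse, and the ranges of the last 3 groups overlap.

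Saa1 and Saa2, which encode the liver-type acute phase apolipoproteins, were far lower than Saa3 in lung. In hyperoxia Saa1 was at 0.418 to 9.72 FPKM (median 3.27) in C3H saline mice, at 0.851 to 27.6 FPKM (median 5.66) in C57B saline mice, at 8.23 to 20.1 FPKM (median 16.3) in C3H ATG mice and at 1.63 to 12.8 FPKM (median 2.98) in C57B ATG mice. No hyperoxia mouse was at 0. Its 6 C3H ATG mice in hyperoxia lay above all room air mice of that strain and injection (15.8% of all genes were higher without overlap there), and in each of the other 3 conditions 5 of 6 did. Saa2 stayed at or below 5.03 FPKM in every mouse. Its hyperoxia medians were 0.812 in C3H saline, 1.64 in C57B saline, 3.28 in C3H ATG and 0.713 FPKM in C57B ATG mice, 4 of the 24 hyperoxia mice were at 0, and room air and hyperoxia did not overlap in C3H ATG mice alone.

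Lcn2 was also higher in hyperoxia throughout, by smaller ratios than Saa3. In C3H saline mice it was at 30.2 to 161 FPKM (median 89.3) in room air and at 194 to 1279 FPKM (median 326) in hyperoxia. In C57B saline mice it was at 102 to 189.8 FPKM (median 148) in room air and at 340.5 to 2142 FPKM (median 1133) in hyperoxia. The room air and hyperoxia mice of each strain were apart. In C3H ATG mice it was at 109.7 to 166 FPKM (median 118) and at 892 to 2303 FPKM (median 1493). In C57B ATG mice it was at 154 to 256 FPKM (median 207) and at 384 to 1554 FPKM (median 482). Hyperoxia and room air did not overlap in any of the 4 pairs, and the ratios of medians were 3.65 in C3H saline, 7.64 in C57B saline, 12.7 in C3H ATG and 2.33 in C57B ATG mice. Over all genes, 9.85%, 15.5%, 15.8% and 18.1% were higher without overlap, in the same order. Among the hyperoxia groups the ranges of neighbors in the order C3H ATG, C57B saline, C57B ATG and C3H saline overlap.

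Hp differed in opposite directions in the strains. In C57B mice it was lower in hyperoxia, at 355 to 492 FPKM (median 401) after saline and at 208 to 715 FPKM (median 379) after ATG, against 725.5 to 1258 FPKM (median 1058) and 802 to 1508 FPKM (median 1066) in room air. All 12 C57B hyperoxia mice lay below the C57B room air mice of their injection, with ratios of medians of 0.379 and 0.355 (15.9% and 13.1% of all genes were lower without overlap). In C3H saline mice the ranges overlap, at 576.5 to 1304 FPKM (median 858) in room air and 917 to 1207 FPKM (median 1039) in hyperoxia. In C3H ATG mice Hp was at 598 to 1202 FPKM (median 845) in room air and at 1285 to 1928 FPKM (median 1716) in hyperoxia, with no overlap and a ratio of medians of 2.03 (15.8% of all genes were higher without overlap). In hyperoxia every C3H mouse exceeded every C57B mouse of the same injection, by ratios of medians of 2.59 after saline and 4.53 after ATG (5.83% and 6.07% of all genes were higher without overlap). The summed FPKM of 7 lung epithelial markers was also lower in hyperoxia in C57B than C3H mice. Its medians were 21350 and 44100 in saline mice and 30450 and 47210 in ATG mice. Scgb1a1 and Sftpc had the highest medians over all mice (48580 and 17850 FPKM). The sum therefore does not give the direction of the list. By gene, 4 of the 7 were called higher in C3H and 0 lower in saline hyperoxia mice (5283 of all 16994 genes were called). In ATG hyperoxia mice 4 were called higher in C3H and 1 lower (4085 of all genes were called). The part of these markers in the Hp result was not tested.

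Cp overlapped between hyperoxia and room air in 3 of 4 pairs. In C57B mice it was at 56.8 to 94.1 FPKM (median 73.8) in room air and at 64.9 to 103 FPKM (median 76.3) in hyperoxia after saline, and at 64.0 to 96.6 FPKM (median 78.9) and 55.1 to 97.2 FPKM (median 64.8) after ATG, with overlap in both. In C3H saline mice it was at 44.9 to 93.9 FPKM (median 67.2) and at 78.8 to 153.6 FPKM (median 97.1), again with overlap. In C3H ATG mice it was at 50.5 to 96.8 FPKM (median 66.9) in room air and at 154.3 to 318 FPKM (median 194) in hyperoxia, without overlap (15.8% of all genes were higher without overlap). The lowest of the latter lay just above the highest other hyperoxia mouse, at 154.3 against 153.6 FPKM. The share of all genes with that separation was not computed.
Orm1 had another order. In hyperoxia it was at 0.579 to 12.6 FPKM (median 1.00) in C3H saline mice, at 3.13 to 20.6 FPKM (median 6.47) in C57B saline mice, at 2.41 to 20.0 FPKM (median 9.54) in C3H ATG mice and at 2.93 to 12.75 FPKM (median 7.93) in C57B ATG mice. The last 3 ranges overlap widely, and 5 of 6 C3H saline mice lay below every C57B saline mouse. Against room air the ratio of medians was 11.3 in C57B saline and 14.7 in C57B ATG mice, where the groups did not overlap (15.5% and 18.1% of all genes were higher without overlap). They did not overlap in C3H ATG mice either, at 0 to 1.63 FPKM (median 0.438, with 3 of 6 mice at 0, so that no ratio is given) in room air, and in C3H saline mice 3 of 6 hyperoxia mice lay above all room air mice.

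**Figure D2:**
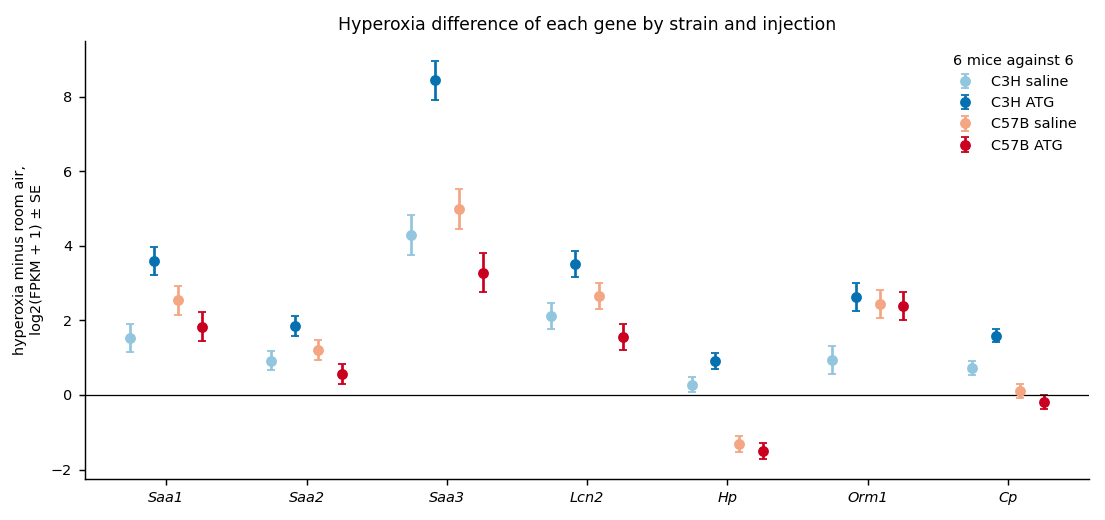
Difference between hyperoxia and room air on the log2(FPKM + 1) scale, with its standard error, for each gene in the 4 combinations of strain and injection (6 mice against 6). Saa3 spans 3.28 in C57B ATG to 8.43 in C3H ATG mice, and Hp is below 0 in both C57B conditions and above 0 in both C3H conditions.

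The limma fit of all 48 mice gave the same picture on the log2(FPKM + 1) scale, which understates the difference of low genes. The hyperoxia difference of Saa3 was 4.29 ± 0.53 (SE) in C3H saline, 8.43 ± 0.53 in C3H ATG, 4.99 ± 0.53 in C57B saline and 3.28 ± 0.53 in C57B ATG mice. That of Lcn2 was 2.11 ± 0.35, 3.52 ± 0.35, 2.66 ± 0.35 and 1.54 ± 0.35 in the same order. That of Hp was 0.28 ± 0.21, 0.91 ± 0.21, -1.32 ± 0.21 and -1.50 ± 0.21. At an adjusted p under 0.05, 6 of the 7 genes were called higher and 1 lower (Hp) with hyperoxia in saline mice, where 61.6% of all 16994 genes were called, and 6 higher and 0 lower in ATG mice, where 58.2% were called. These contrasts chose the genes, so nothing is read from these counts.

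In room air the ATG and saline mice overlapped for all 7 genes in both strains (0.053% of all genes were higher and 0.0412% lower without overlap in C3H, and 0.0353% and 0.112% in C57B). The ratios of medians were 1.18 and 1.64 for Saa3, 1.32 and 1.39 for Lcn2, 0.985 and 1.01 for Hp and 0.996 and 1.07 for Cp in C3H and C57B. Over all genes, 0.0235% were called in this comparison by limma, and of the 7 none was (1 at an unadjusted p under 0.05).
In hyperoxia, ATG went with higher levels in C3H mice. The ratio of ATG to saline medians was 19.9 for Saa3, 4.98 for Saa1, 4.58 for Lcn2, 9.54 for Orm1, 2.00 for Cp and 1.65 for Hp, and the groups did not overlap for Saa3, Hp and Cp (1.08% of all genes were higher without overlap). In C57B mice the ratios were 0.413 for Saa3, 0.527 for Saa1, 0.426 for Lcn2, 0.850 for Cp and 0.945 for Hp, while that of Orm1 was 1.225, and the groups overlapped for all 7 genes (0.806% of all genes were higher and 0.335% lower without overlap). The difference in the fit was 4.20 ± 0.53 in C3H and -1.06 ± 0.53 in C57B for Saa3, and 2.03 ± 0.35 and -0.66 ± 0.35 for Lcn2. The number of the 7 called higher was 6 in C3H, where 2.88% of all genes were called, and 0 in C57B, where 2.69% were called, with 0 called lower in either (in C57B, 1 was at an unadjusted p under 0.05). The injection and strain labels chose the genes, so nothing is read from these counts either. The saline hyperoxia mice of a strain serve both in this comparison and in that of hyperoxia with room air.

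Within hyperoxia conditions, single mice differed widely. In C3H saline mice 1 female (mouse 33) had the highest value of all 7 genes, with 596 FPKM of Saa3, 1279 FPKM of Lcn2 and 12.6 FPKM of Orm1, and also of all 8 inducing cytokines detected there and of 11 of 13 neutrophil markers. In C57B saline mice 1 female (mouse 43) was highest in 6 of the 7 genes, and in C57B ATG mice 1 female (mouse 48) was highest in 6 of the 7, in 8 of 9 cytokines and in 10 of 12 neutrophil markers. In C3H ATG mice the highest values were shared among 4 mice.
Lcn2 is stored in neutrophil granules, so neutrophil markers are given beside it. Their summed FPKM over 13 genes had medians of 207 and 479 in room air and 220 and 3161 in hyperoxia for saline C3H and C57B mice, and of 162 and 966 in room air and 781 and 407 in hyperoxia for ATG mice. The hyperoxia ranges were 191 to 6423 in C3H saline, 190 to 5011 in C57B saline, 172 to 2993 in C3H ATG and 246 to 1128 in C57B ATG mice. Of 11 neutrophil markers tested, 9 rose with hyperoxia in saline mice and 3 in ATG mice (32.4% and 33.6% of all genes rose). Taken apart, 4 were called higher in C3H saline, 7 in C3H ATG, 7 in C57B saline and 0 in C57B ATG mice. Of all 16994 genes, 6993, 7412, 9753 and 8853 were called in either direction, in the same order. These counts do not test a strain difference. For the difference between strains in the hyperoxia effect in saline mice, 1 of the 11 was called, lower in C3H (2994 of all genes were called). For that in the ATG effect in hyperoxia 0 of the 11 were called (1.38% of all genes were called). For the difference by injection 0 of the 11 were called (2.77% of all genes were called). S100a9, S100a8 and Retnlg were the highest, with medians over 48 mice of 160, 120 and 30.6 FPKM, and the granule genes Ltf, Ngp and Camp had medians of 5.24, 2.08 and 1.11 FPKM. Mpo and Elane were at 0 in 29 and 40 mice. The part of neutrophils in the Lcn2 result was not tested. Hepatocyte markers were near 0. Their 10 genes summed to 3.25 to 33.4 FPKM in room air and 1.49 to 7.27 FPKM in hyperoxia, and Ttr, Fgb and Serpina1a were at 0 in 37, 37 and 39 of 48 mice. Macrophage and monocyte markers (11 genes) summed to 2592 to 12230 FPKM in room air and to 2186 to 4601 FPKM in hyperoxia. That sum is mostly Lyz2, with a median of 3530 FPKM over 48 mice, and does not give the direction of the list. Of the 11, 7 rose and 2 fell with hyperoxia in saline mice and also in ATG mice (32.4% and 33.6% of all genes rose, and 29.1% and 24.7% fell). Their part in the Saa3 result was not tested.

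**Figure D3:**
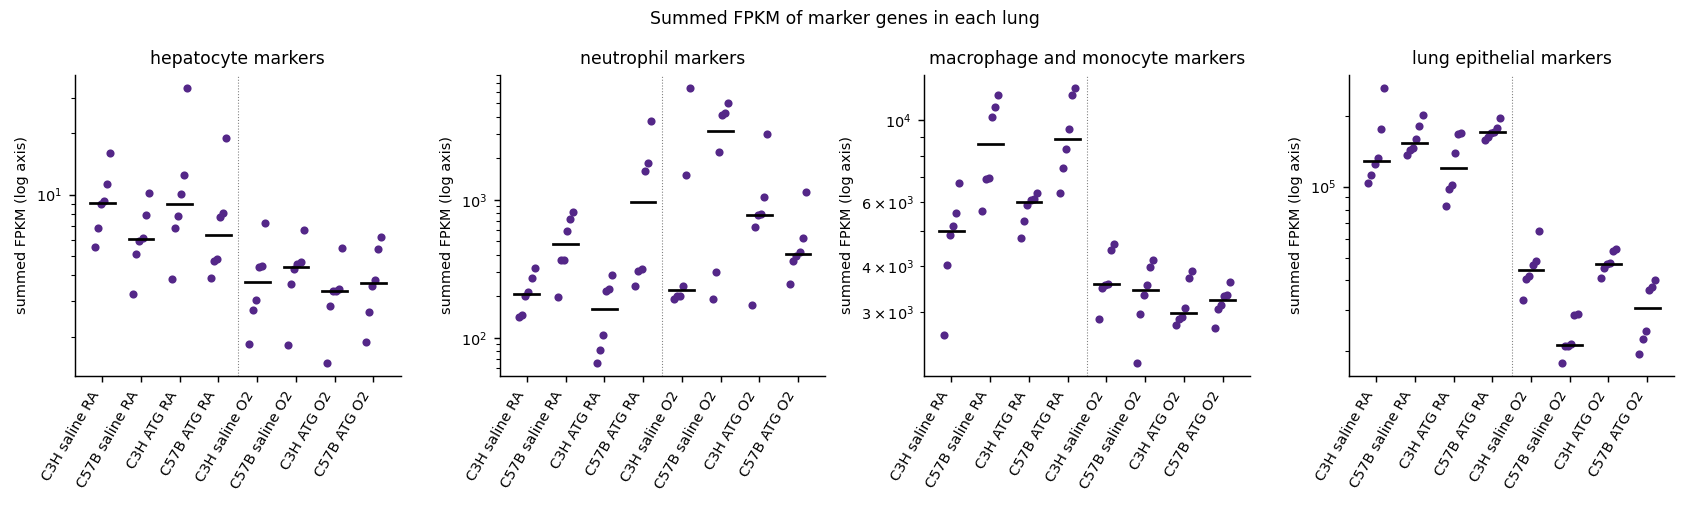
Summed FPKM (log axis) of the hepatocyte (10 genes), neutrophil (13), macrophage and monocyte (11) and lung epithelial (7) marker lists in every lung, with 6 mice per condition and black bars at the median. Hepatocyte sums do not exceed 7.27 in hyperoxia, and neutrophil sums range from 172 to 6423 there.

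Sex was not used to choose the genes and could be tested. The comparison of the sexes within each air was added after seeing the data, and its p-values do not allow for that. The exact p-values are also not adjusted over the 7 genes. In hyperoxia Saa3 was higher in females than males, at 101 to 5357 FPKM (median 759) in 12 females and 53.8 to 3953 FPKM (median 129) in 12 males. The 3 females and 3 males of C3H saline mice did not overlap, at 211.5, 344 and 596 FPKM against 63.9, 84.9 and 164 FPKM (9.04% of all genes were higher in these females without overlap). The other strata overlap, with 3522, 4473 and 5357 FPKM against 1828, 2548 and 3953 FPKM in C3H ATG, 101, 1386 and 2306 FPKM against 53.8, 119 and 456 FPKM in C57B saline, and 110.0, 127 and 921 FPKM against 80.3, 80.7 and 139 FPKM in C57B ATG mice. The mean of females was higher in 4 of 4 strata. The male minus female difference was -1.53 ± 0.37 (SE) on the log2(FPKM + 1) scale, with a limma p adjusted over all 16994 genes of 0.0187 and a two-sided exact p of 0.00613 from permuting sex within strata. Fitted in the 24 hyperoxia mice alone, the same difference had a limma adjusted p of 0.103 and did not pass, nor did any other of the 7.
Saa1 was at 2.69 to 27.6 FPKM (median 9.23) in females and 0.418 to 19.2 FPKM (median 2.98) in males, a difference of -0.95 ± 0.27 with an adjusted p of 0.0419 in limma and an exact permutation p of 0.0185, and its female mean was higher in 3 of 4 strata. Lcn2 was at 364 to 2303 FPKM (median 1394) in females and 194 to 1629 FPKM (median 473) in males, and its difference of -0.82 ± 0.24 had an exact permutation p of 0.0155 but a limma adjusted p of 0.0501, so it did not pass. The other 4 genes did not pass, with -0.46 ± 0.19 for Saa2, -0.54 ± 0.27 for Orm1, -0.16 ± 0.13 for Cp and -0.03 ± 0.15 for Hp. Of all genes, 3.65% were called between the sexes in hyperoxia and 1.79% were lower in males, against 2 of the 7, both lower.

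In room air none of the 7 was called by limma, and none was at an unadjusted p under 0.05 (14.5% of all genes were called), while Saa3 had medians of 9.31 FPKM in females and 10.1 FPKM in males. Saa1 and Saa2 were at 0 in 15 and 21 of the 24 room air mice, so their tests there could hardly have passed. The difference of the sex effect between hyperoxia and room air did not pass either, at -1.60 ± 0.53 for Saa3 and -1.22 ± 0.38 for Saa1, with limma adjusted p of 0.0712 and 0.0604 (4.16% of all genes were called), so the sex difference is not shown to depend on air. For Saa1 the room air side of this difference lies near 0 FPKM. Over all 48 mice Lcn2 alone was called, at -0.51 ± 0.17 with a limma adjusted p of 0.0465 (12.4% of all genes were called). Saa3 did not pass there, at -0.73 ± 0.26 with a limma adjusted p of 0.0640. No gene of the 7 was called by limma, or was at an unadjusted p under 0.05, for sex by strain (0.453% of all genes called) or sex by injection (0% of all genes called, with 1248 at an unadjusted p under 0.05).
The females of hyperoxia include mice 33, 43 and 48. The number of the 7 called was 1 when mouse 8, 9, 11, 12, 20, 22, 23, 24, 33, 35, 36, 43, 45 or 48 alone was left out and 0 without mouse 21. Without mice 33, 43 and 48 together none was called, and the calls over all genes went from 621 to 54. These 3 females were picked for their high values of these genes, so leaving them out lowers the female mean by construction and bears on no call. Neutrophil markers moved with sex as well, with 7 of 11 tested lower in males in hyperoxia (3 without mouse 33 or without mouse 48, and 0 without mice 33, 43 and 48), and their summed FPKM was 191 to 6423 (median 1324) in females and 172 to 5011 (median 273) in males. Of 11 macrophage and monocyte markers, 5 were lower in males, among them Arg1 (-1.37 ± 0.40), Spp1 (-1.18 ± 0.22) and Ear2 (-0.68 ± 0.14), and their summed FPKM was 2766 to 4419 (median 3558) in females and 2186 to 4601 (median 3192) in males. Of the 5, 2 to 3 were called without mouse 33, 43 or 48, and 1 without all of them. Of 7 lung epithelial markers, Sftpc (0.65 ± 0.15) and Sftpa1 (0.58 ± 0.17) were higher in males, and Sftpc alone was called without mouse 33, 43 or 48, and 0 of the 7 without all of them. The part of these cell types in the sex result was not tested.

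**Figure D4:**
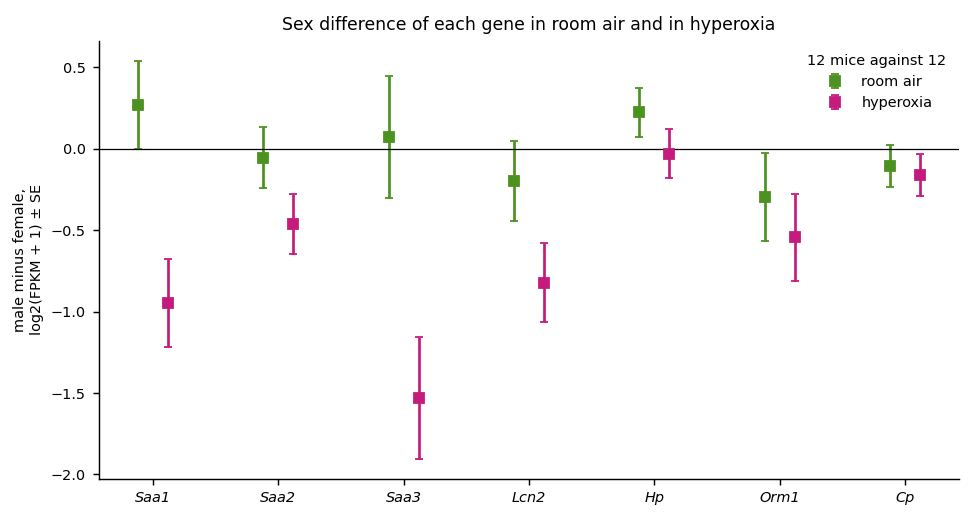
Male minus female difference on the log2(FPKM + 1) scale, with its standard error, for each gene in room air and in hyperoxia (12 mice against 12). Saa3 lies at -1.53 and Saa1 at -0.95 in hyperoxia, and Hp lies near 0 in hyperoxia.

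The cytokines that induce acute phase genes were higher in hyperoxia. Of 10 listed, 8 passed the filter, and 7 rose in saline mice and 8 in ATG mice in the limma fit (32.4% and 33.6% of all genes rose, and 29.1% and 24.7% fell). Il6, the main inducer in liver, rose by 4.02 ± 0.46 and 4.12 ± 0.46 on the log2(FPKM + 1) scale, from 0 to 2.23 FPKM in all room air mice to 1.76 to 403 FPKM in C3H saline and 3.83 to 372 FPKM in C57B saline hyperoxia mice. Lif and Il11, of the same cytokine family, rose by 3.35 ± 0.32 and 2.25 ± 0.36 in saline mice and by 3.08 ± 0.32 and 1.62 ± 0.36 in ATG mice. Osm, another member, rose by 1.17 ± 0.31 and 0.81 ± 0.31, Il1b by 1.01 ± 0.42 and 1.12 ± 0.42 and Tnf by 0.52 ± 0.18 and 0.61 ± 0.18. Il1a had a difference of 0.21 ± 0.15 in saline mice, which did not pass.
Between ATG and saline in hyperoxia none of the 8 cytokines was called by limma (1 at an unadjusted p under 0.05, and 5.38% of all genes called), nor in C3H (2 at an unadjusted p under 0.05) or C57B alone (3). In C3H hyperoxia mice Il6 was at 1.76 to 403 FPKM (median 14.3) after saline and at 20.4 to 77.1 FPKM (median 43.6) after ATG, with overlap. In C57B mice it was at 3.83 to 372 FPKM (median 93.7) and at 7.34 to 50.8 FPKM (median 9.75). The difference between strains in the ATG effect was 3.41 ± 0.92 for Il6, with a limma adjusted p of 0.0497, and it was the only one of the 8 called (1.38% of all genes were called). Without mouse 43 none was, and without mouse 33, 4 of the 8 were. Mouse 33 was highest in all 8 among the C3H saline hyperoxia mice, so leaving it out raises the C3H difference by construction.

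**Figure D5:**
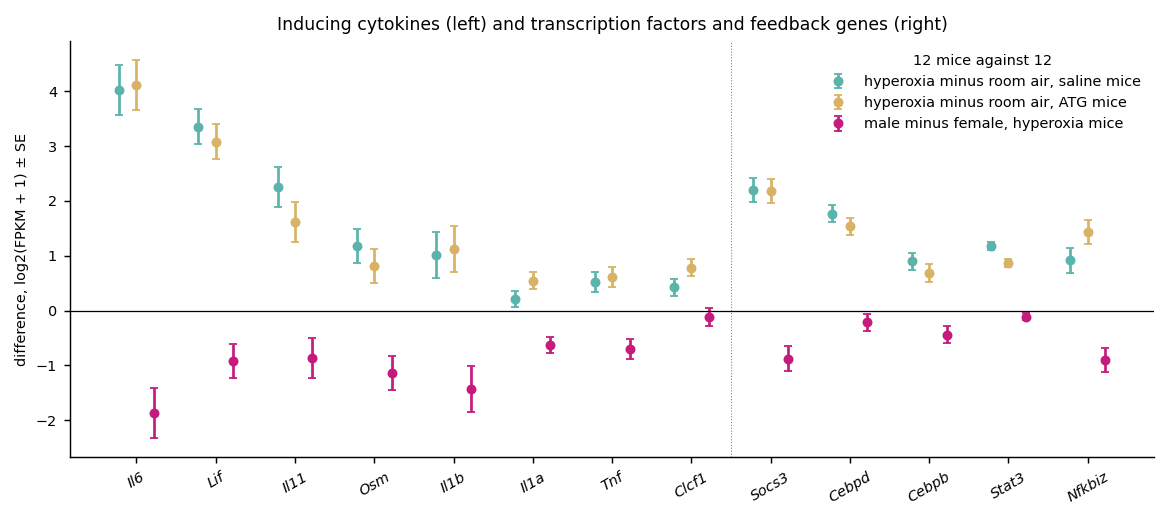
Differences on the log2(FPKM + 1) scale, with standard errors, of 8 inducing cytokines and 5 transcription factor or feedback genes for hyperoxia against room air in saline and in ATG mice and for males against females in hyperoxia (12 mice against 12). Il6 has the largest hyperoxia differences plotted, 4.02 and 4.12, and all male minus female differences plotted are below 0. Of the factors tested but not plotted, Rela (0.141), Cebpa (0.029) and Relb (0.024) had male minus female differences above 0.

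Intracellular mediators were tested in the same comparisons. Of 13 transcription factors and feedback genes tested, 10 rose and 2 fell with hyperoxia in saline mice and also in ATG mice. Over all genes, 32.4% and 33.6% rose, and 29.1% and 24.7% fell. Socs3, the feedback inhibitor of this cytokine family, rose by 2.20 ± 0.22 and 2.19 ± 0.22, Cebpd by 1.77 ± 0.15 and 1.53 ± 0.15, and Stat3 by 1.18 ± 0.07 and 0.86 ± 0.07. Bcl3, an NF-kB cofactor, rose by 1.18 ± 0.15 and 1.25 ± 0.15, and Cebpb by 0.90 ± 0.16 and 0.69 ± 0.16. Cebpa fell by 0.61 on the log2 scale in saline and by 0.60 in ATG mice, and the glucocorticoid receptor gene Nr3c1 fell by 0.62 and by 0.59. Of 13 receptors and adaptors, 10 rose and 2 fell in saline mice, where 61.6% of all genes were called. In ATG mice 6 rose and 3 fell, where 58.2% of all genes were called against 9 of these 13. Osmr, the oncostatin M receptor, rose by 1.26 ± 0.09 and 1.48 ± 0.09, and Lifr fell by 1.14 and by 1.39.
The ATG effect in hyperoxia differed between the strains in 6 of the 13 factors and 4 of the 13 receptors, each with the higher value in C3H. Of all genes, 1.38% were called. The difference was 2.07 ± 0.44 for Socs3, 1.80 ± 0.31 for Cebpb, 1.68 ± 0.31 for Bcl3, 1.95 ± 0.44 for Nfkbiz and 1.23 ± 0.18 for Osmr. Socs3 had medians of 51.5 and 103 FPKM after saline and ATG in C3H and of 151 and 47.6 FPKM in C57B hyperoxia mice. In C57B, 5 of the 13 factors fell with ATG in hyperoxia (2.69% of all genes were called), Cebpb by 1.16 and Socs3 by 1.13 on the log2 scale. In C3H 3 rose (2.88% of all genes were called), Bcl3 by 0.89 ± 0.22, Nfkb2 by 0.85 ± 0.14 and Relb by 0.65 ± 0.14. Without mouse 33, 7 of the 13 receptors were called for the strain difference in the ATG effect, and without mice 33, 43 and 48, 11 of the 13 factors were. All of these mice were picked for high values of the acute phase genes, so neither count adds support to that difference.

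Other acute phase genes gave a mixed picture. Of 34 listed, 19 passed the filter, and 11 rose and 4 fell with hyperoxia in saline mice, and 11 rose and 2 fell in ATG mice. Of all genes, 61.6% and 58.2% were called in saline and ATG mice, and 32.4% and 33.6% rose. The median difference was 0.71 in saline mice, against 0.01 over all genes tested. Serpina3n, a serine protease inhibitor, rose by 3.34 ± 0.13 in saline and 2.78 ± 0.13 in ATG mice, from 13.2 to 39.3 FPKM in C3H saline mice in room air to 177 to 523 FPKM in hyperoxia, without overlap. Its neighbor in the family Serpina3m rose by 3.88 ± 0.19 and 3.43 ± 0.19, the long pentraxin Ptx3 by 2.83 ± 0.40 and 3.18 ± 0.40, and complement factor B (Cfb) by 1.48 ± 0.15 and 1.78 ± 0.15. Complement C3 rose by 0.71 ± 0.12 and 0.55 ± 0.12. Hamp, the iron hormone hepcidin, fell by 2.29 and by 2.51 on the log2 scale, and Itih4 fell by 2.28 and by 2.09. Of 6 negative acute phase proteins tested, 4 fell in saline and 2 in ATG mice, where 29.1% and 24.7% of all genes fell, among them transferrin (Trf) by 0.83 and by 1.02 and retinol binding protein (Rbp4) by 0.70 and by 0.52.
The ATG effect in hyperoxia differed between strains in 8 of the 19, each with the higher value in C3H (1.38% of all genes were called). The count was 13 without mice 33, 43 and 48, which were picked for high values of the acute phase genes, so it adds no support. The difference was 4.19 ± 0.81 for Ptx3, 2.66 ± 0.40 for the metalloreductase Steap4, 1.69 ± 0.31 for Cfb and 1.47 ± 0.28 for the lipopolysaccharide binding protein gene Lbp. Steap4 was at 39.6 to 70.2 FPKM in C3H ATG and at 8.26 to 36.5 FPKM in C3H saline hyperoxia mice, without overlap, and at 5.39 to 21.8 FPKM and 4.40 to 35.7 FPKM in C57B. The 8 include Saa4, another gene of the serum amyloid cluster, which was at 1.17 to 2.56 FPKM in C3H ATG hyperoxia mice and at most 0.242 FPKM in every other mouse. It passed the filter through that group alone and so had to differ. Serpina3n and Serpina3m were not called for this difference. Of the 7 genes described here, 5 were called higher, Saa3 at 5.26 ± 0.75, Lcn2 at 2.70 ± 0.49, Saa1 at 2.50 ± 0.54, Saa2 at 1.50 ± 0.37 and Cp at 1.14 ± 0.26, a description because the contrast chose them.

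Between strains in saline hyperoxia mice, 3 of the 8 cytokines were lower in C3H than in C57B, with C3H minus C57B differences of -1.77 ± 0.45 for Lif, -1.68 ± 0.65 for Il6 and -0.71 ± 0.23 for Clcf1 (31.1% of all genes were called). Without mouse 33, 6 of the 8 were called lower, but that mouse was highest in all 8 in its condition, so leaving it out lowers the C3H mean by construction. Cebpb (-1.38 ± 0.22) and Socs3 (-1.20 ± 0.31) were lower as well. In these mice 1 of the 7 genes, Hp, was called higher in C3H and 2, Lcn2 and Orm1, lower, again a description.
Between the sexes in hyperoxia, 5 of the 8 cytokines were lower in males, with male minus female differences of -1.88 ± 0.46 for Il6, -1.44 ± 0.42 for Il1b, -1.14 ± 0.31 for Osm, -0.71 ± 0.18 for Tnf and -0.63 ± 0.15 for Il1a. Of all genes, 3.65% were called and 1.79% were lower in males. Of the 13 factors, 2 were called, Socs3 (-0.88 ± 0.22) and Nfkbiz (-0.90 ± 0.22), both lower. Cebpd at -0.21 ± 0.15 and Stat3 at -0.11 ± 0.07 did not pass. Of the 19 other acute phase genes, 3 were called lower and 2 higher. Ptx3, Steap4 and Serpina3m were lower in males, at -1.69 ± 0.40, -0.79 ± 0.20 and -0.83 ± 0.19, and Itih4 and the chitinase-like Chil1 were higher by 0.56 ± 0.14 and 0.52 ± 0.13. Without mouse 33, 1 of the 8 cytokines and none of the factors was called, without mouse 43, 3 cytokines were, without mouse 48, 2 were, and without mice 33, 43 and 48 none was, nor any of the 19 other acute phase genes. These females were picked for high values of the acute phase genes, so the count without all of them bears on no call.

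Receptors and partners of the encoded proteins were measured too. Of 12, 7 rose and 3 fell with hyperoxia in saline mice, and 3 rose and 6 fell in ATG mice, so that 10 and 9 of the 12 were called where 61.6% and 58.2% of all genes were. Cd163, the macrophage receptor for haptoglobin bound to hemoglobin, rose by 1.35 ± 0.11 and 1.20 ± 0.11, and Hmox1, the enzyme that degrades heme, by 2.14 ± 0.16 and 1.99 ± 0.16. In saline hyperoxia mice both were lower in C3H than C57B, at -0.89 ± 0.16 and -1.59 ± 0.23, where Hp was higher. Fpr2, a receptor for serum amyloid A on myeloid cells, rose by 0.79 ± 0.25 in saline mice and fell by 0.67 in ATG mice, and this difference by injection was -1.46 ± 0.35, with a limma adjusted p of 0.0197 (2.77% of all genes were called). Slc22a17 and Lrp2, receptors for lipocalin 2, fell by 0.32 and by 0.46 in saline mice and by 0.38 and by 0.64 in ATG mice. Slc40a1, the iron exporter ferroportin, with which ceruloplasmin acts, was higher in C3H than C57B by 1.21 ± 0.15 in saline hyperoxia mice.

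How the 7 genes varied together within groups was described by correlation. After subtracting the 16 group means, Pearson r over the 48 mice was 0.697 for Saa1 and Saa3, 0.646 for Saa3 and Lcn2, 0.596 for Lcn2 and Orm1 and 0.587 for Hp and Cp, against 0.184 for Hp and Lcn2 and 0.265 for Hp and Saa3. These values are a description, since the points share libraries and the FPKM scale, on which Scgb1a1 takes a large share. The genes most like Hp were Scgb1a1 (0.804), Wfdc2 (0.773) and Cldn10 (0.762), which club and other airway epithelial cells express, and those most like Cp were Dnaaf3 (0.858), Cyp2a5 (0.83) and Pcp4l1 (0.828). Those most like Saa3 were Ptafr (0.75), Cxcl3 (0.748) and Il1r1 (0.743), and those most like Lcn2 were Steap4 (0.883), Lrg1 (0.861) and Eif5a (0.858). Has2, F10 and Gm18445 were most like Orm1 (0.773 to 0.789), Alyref, Nudt6 and Ccdc71l most like Saa1 (0.697 to 0.725) and Slc6a12, Mdfi and Tet2 most like Saa2 (0.692 to 0.719).
Without the subtraction, when room air and hyperoxia mice form separate clusters that raise r, the closest genes were Cfb for Saa3 (0.948), Osmr for Lcn2 (0.95), Sod2 for Saa1 (0.914) and Saa2 (0.881), C3ar1 for Orm1 (0.916), Pigr for Cp (0.848) and Isyna1 for Hp (0.822).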

How the data were processed

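Lung RNA of 48 mice was sequenced. FPKM was computed by the authors with Cufflinks after alignment to mm10 by GSNAP, per the submitters' processing notes, and the deposited table holds 1 FPKM value per gene and mouse with no counts, so no test for counts was used. The handling of reads with several matches is not given in the sources used here. Mice were grouped by their labels, 3 in each of 16 groups. Akap5, with failed estimates in 7 mice, was left out, and 20454 genes were at 0 in all mice. No mice had identical values.

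Log2(FPKM + 1) was fitted in 16 group means with limma 3.58.1 in R 4.3.3 (lmFit, eBayes with trend) over 16994 genes with at least 1 FPKM in at least 3 mice. P-values were adjusted by Benjamini-Hochberg with a threshold of 0.05, and the fit was tested on simulated data. Sex was also permuted exactly within strain and injection (160000 arrangements, smallest possible p 1.25e-05). The 7 genes and all lists were chosen with earlier results of these data known. Of each list the text names genes past the threshold with large differences or high FPKM, other genes in it being named after their values were seen, and the genes most like each of the 7 by Pearson r. Alternatives were a pseudocount or filter of 0.1, no filter, quantile and median ratio scaling, scaling without Scgb1a1, eBayes without trend, the mice of a comparison alone, single sexes and leaving out each mouse. Sex within each air, the ATG effect by strain and the fits without mice 33, 43 and 48 were added after seeing the data. Positions are from GENCODE M21, promoters from RefSeq.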

Additional observations from a re-analysis of the deposited data

Results flagged for a closer look

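Dixon's ratio was computed for the 6 mice of each condition in each gene, 54 groups in all, and 10 passed its 95% critical value, where chance would flag about 1 in 20 groups of normally distributed values. FPKM values are skewed and some groups hold mostly 0, and the chance rate for such values was not computed. Of these, 3 came from mouse 33, a C3H female given saline in hyperoxia, with 3.784 FPKM of Saa2, 1279 FPKM of Lcn2 and 12.62 FPKM of Orm1. Another 3 came from mouse 48, a C57B female given ATG in hyperoxia, with 12.8 FPKM of Saa1, 921.3 FPKM of Saa3 and 1554 FPKM of Lcn2. Mouse 43, a C57B female given saline in hyperoxia, had 5.032 FPKM of Saa2. In room air, mouse 15 (C57B male, saline) had 1.143 FPKM of Saa1 and mouse 37 (C57B female, saline) 0.4523 FPKM of Saa2, each with the other 5 mice of its condition at 0, and mouse 1 (C3H male, saline) had 19.55 FPKM of Saa3.

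Hp went opposite ways with hyperoxia in the 2 strains after ATG. The ratio of the hyperoxia to the room air median was 2.03 in C3H mice, where all 6 hyperoxia mice were above all 6 in room air, and 0.3551 in C57B mice, where all 6 were below. The difference between the strains was not tested, since these values chose the gene.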

How the results depend on the processing

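The sex difference of Saa3 in hyperoxia was negative in all 56 alternatives run, at -1.874 to -1.284, and lost its call in the hyperoxia mice alone (limma adjusted p 0.103) and without mouse 21 (0.0532). The number of the 7 called for sex in hyperoxia (2) was 1 with a pseudocount of 0.1, with a filter at 0.1 FPKM or with no filter, 0 in the hyperoxia mice alone, and 0 to 3 when 1 mouse was left out. For sex over all mice (1) it was 0 with either other filter, median ratio scaling, eBayes without trend or the saline room air mice alone, 2 without Scgb1a1, and 0 to 2 when 1 mouse was left out. For sex by air (0) it was 1 with quantile normalization or without Scgb1a1, and 0 to 2 when 1 mouse was left out. Without 1 mouse, the limma adjusted p for sex in hyperoxia was 0.00138 to 0.0532 for Saa3, 0.00609 to 0.110 for Saa1 and 0.00472 to 0.138 for Lcn2. Signs turned for differences near 0: Orm1 sex by air with a pseudocount of 0.1 (0.2189), Hp sex in hyperoxia with quantile normalization (0.01105) and when 1 mouse was left out (-0.159 to 0.0630), Cp sex by air without Scgb1a1 (0.05429) and when 1 mouse was left out (-0.111 to 0.0149), and Saa3 in room air without Scgb1a1 (-0.01957), when 1 mouse was left out (-0.0300 to 0.154) and over all mice in the saline room air mice alone (0.2937).

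Counts of all genes called went, with no filter, from 470 to 313 for hyperoxia by injection, from 4 to 8 for ATG in room air, from 77 to 31 for sex by strain and from 0 to 1 for sex by injection. With quantile normalization sex by strain gave 122. Without Scgb1a1, ATG in hyperoxia gave 483, sex by air 1837 and sex in room air 4188, and this scaling took the median difference of all genes from 0.08 to 0.17 for sex by air and from -0.06 to -0.14 for sex in room air. In the mice of the comparison alone, hyperoxia by strain gave 1880, ATG in hyperoxia by strain 66, strain in saline room air 1832 and sex in hyperoxia 108, and sex in the saline room air mice gave 104, with fewer mice in each fit. The share of calls that were higher in ATG mice in hyperoxia was 73.4%, but 44.8% with quantile normalization, 38.0% with median ratio scaling and 40.8% without Scgb1a1. Leaving out 1 mouse gave 243 to 1093 genes for hyperoxia by injection, 2 to 284 for ATG in room air, 530 to 1247 for ATG in hyperoxia, 119 to 790 for ATG in hyperoxia by strain, 2150 to 4565 for strain in saline room air, 442 to 2016 for sex by air, 31 to 1174 for sex by strain, 0 to 39 for sex by injection, 240 to 1804 for sex in hyperoxia and 1699 to 4151 for sex in room air. The highest counts often came without mouse 2 (C3H male, saline, room air), and the cause was not tested. No paired analysis was possible because each mouse has its own number and no number recurs between groups. Read depth is unknown, so values near 0 carry an unknown counting error.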
